A study of Mus musculus with 2 samples.

Results

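The small leucine-rich proteoglycans are secreted proteins of the extracellular matrix, and 10 of them were followed here: *Dcn* (decorin), *Bgn* (biglycan), *Aspn* (asporin), *Fmod* (fibromodulin), *Lum* (lumican), *Kera* (keratocan), *Prelp* (prolargin), *Omd* (osteomodulin), *Ogn* (osteoglycin, also called mimecan) and *Chad* (chondroadherin). They were chosen by gene symbol, as 10 of the 32285 genes counted, and all 10 were detected. Single-cell RNA-Seq was performed on hindlimb muscle of 24-month-old female C57Bl/6J mice after 3 injections into the tibialis anterior, gastrocnemius and quadriceps. The treated group (ATRA+agonist) received ATRA (all-trans retinoic acid) together with CD3254, an agonist of RXR-alpha, and BMS961, an agonist of RAR-gamma, and the control group (DMSO vehicle) received the solvent alone. Quadriceps and gastrocnemius were digested, the cells were sorted with propidium iodide, and the cells of 2 mice were pooled into 1 library per group. There is therefore no replicate in either group, no test was run, and each difference below is a difference between 2 libraries.

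Each of these proteins has a core of leucine-rich repeats that curves around collagen. Many of them carry sugar chains, which are chondroitin or dermatan sulfate on decorin and biglycan and keratan sulfate on fibromodulin, lumican and keratocan. They bind growing collagen fibrils and limit or shape their thickness, and decorin and biglycan also bind growth factors such as TGF-beta. In skeletal muscle the proteins lie in the connective tissue around fibers and bundles and in the tendon, where fibro-adipogenic progenitors (FAPs, the resident fibroblasts of muscle) and tenocytes (tendon fibroblasts) make most of the matrix.

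A total of 6907 ATRA+agonist cells and 6953 DMSO vehicle cells were analyzed, with medians of 4693 and 4849 unique molecular identifiers (UMIs) per cell. The cells were clustered without the 10 genes, and clusters were named after cell classes by other marker genes, with the ending "-like". The ATRA+agonist library had 1297 FAP-like and 165 tenocyte-like cells, and the DMSO vehicle library had 1605 and 504. All 8 tenocyte markers (such as *Tnmd*, *Scx* and *Mkx*) were enriched in the tenocyte-like cluster. The libraries shared 43 barcodes, of which 8 were kept in both and 0 fell in the same class. A level is given as CPM, the count of a gene per 1000000 UMIs of that class in that library, with an exact Poisson 95% interval where it matters, and all intervals cover counting error only.

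Nearly all proteoglycan transcripts of the analyzed cells were in the connective tissue cells. The 10 genes together made up 3.19% of the UMIs of tenocyte-like cells in the ATRA+agonist library and 2.72% in the DMSO vehicle library. In FAP-like cells they made up 1.95% and 1.82%. The next of the classes with at least 50 cells in each library was smooth muscle or pericyte-like cells, at 0.133% and 0.109%. Among these 10 classes 9 of the 10 genes had their highest mean level in tenocyte-like cells, and *Lum* was the exception with its highest level in FAP-like cells. In 2 cases the lead was within the spread of the libraries. The libraries' values for *Dcn* overlapped between tenocyte-like and FAP-like cells and those for *Aspn* overlapped between tenocyte-like and smooth muscle or pericyte-like cells. When cells were thinned to 1000 UMIs, 6 genes had their highest level in tenocyte-like cells, since *Dcn* and *Bgn* were then highest in FAP-like and *Aspn* in smooth muscle or pericyte-like cells.

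**Figure D1:**
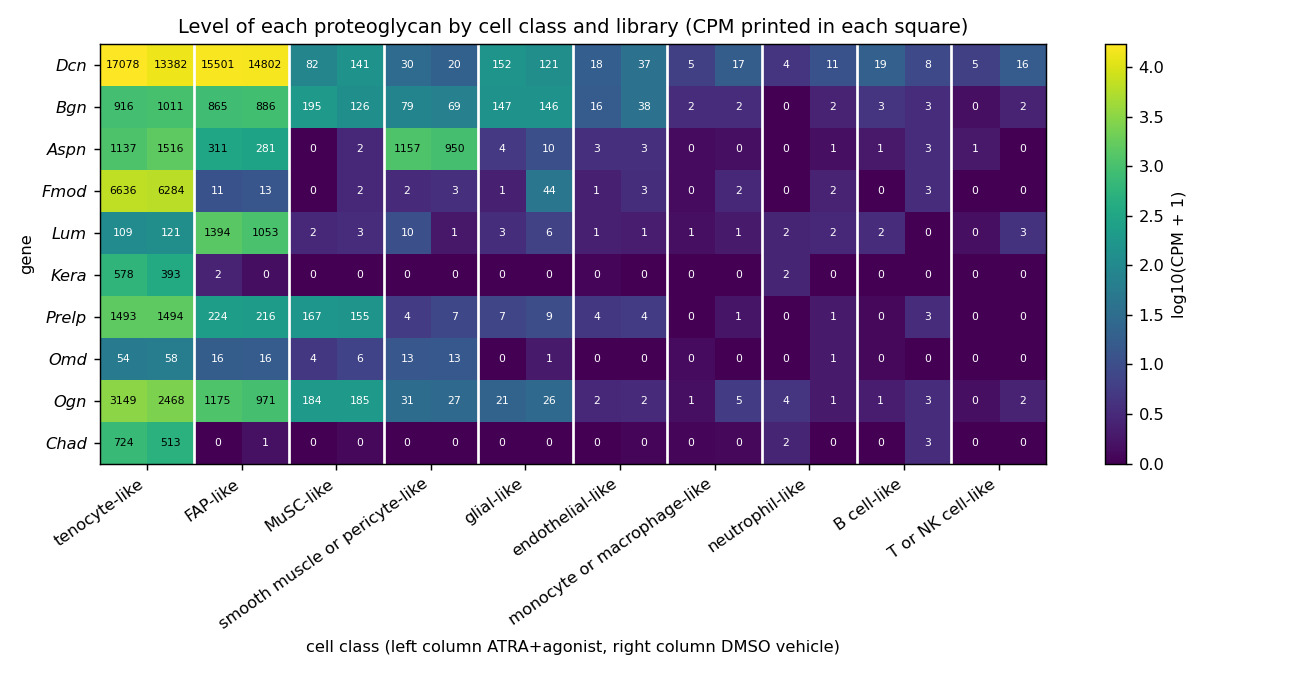
Level of each of the 10 genes (rows) in 10 cell classes (columns, ATRA+agonist on the left and DMSO vehicle on the right of each pair), colored by log10(CPM + 1) with the CPM printed. *Fmod*, *Kera* and *Chad* are brightest in tenocyte-like cells, *Lum* is brightest in FAP-like cells, and *Aspn* has the brightest squares of the smooth muscle or pericyte-like columns.

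*Fmod*, *Kera* and *Chad* were the most restricted genes. Fibromodulin and keratocan are keratan sulfate proteoglycans, and chondroadherin is a cartilage and tendon protein that binds cells and collagen. *Fmod* stood at 6636 CPM in ATRA+agonist and 6284 CPM in DMSO vehicle tenocyte-like cells, which held 98.1% and 98.3% of the *Fmod* UMIs of all analyzed cells. It was detected in 96.4% and 96.2% of these cells, and in 0 of 309 and 0 of 92 T or NK cell-like cells, which allows shares of cells with an *Fmod* UMI of up to 1.19% and 3.93% (exact binomial 95% limits, for detection and not expression) at medians of 6097 and 5966.5 UMIs per cell.

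*Kera* stood at 578 and 393 CPM in tenocyte-like cells, which held 96.8% and 99.3% of its UMIs in all analyzed cells. *Chad* stood at 724 and 513 CPM there, with 99.8% and 99.0% of its UMIs in all analyzed cells. Within the tenocyte-like cells the 3 genes were not equally spread. *Kera* was detected in 60 of 165 ATRA+agonist cells and in 129 of 504 DMSO vehicle cells, and all of them also had *Fmod*. *Fmod* itself was in 159 and 485 of all tenocyte-like cells. The 10 cells richest in *Kera* held 46.9% and 39.2% of its UMIs in these cells, whereas the 10 richest in *Fmod* held 20.02% and 9.07%. *Kera* was thus detected in a minority of the cells that had *Fmod*, at a depth of 7141 and 5191.5 median UMIs per cell. Its level was lower than that of *Fmod*, and whether the other cells lacked *Kera* was not tested.

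*Fmod* was also counted in a few cells of other classes. In DMSO vehicle glial-like cells it had 85 UMIs, of which 84 were in 1 cell. In FAP-like cells it was detected in 24 and 39 cells, and the richest 10 of these held 85.0% and 73.5% of the UMIs. The glial-like value thus describes 1 cell and not the class. The FAP-like UMIs were mostly in the subtype named by *Gdf10* and *Fst* (subtypes are described below), 123 of 140 and 155 of 170. There *Fmod* stood at 39.1 and 39.6 CPM and was detected in 4.80% and 4.85% of cells.

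The promoters of these 3 genes are shown because the genes share their cell class. They are RefSeq sequences of the build GRCm38.p6, from 250 bases before to 50 bases after the start, and the capitals mark matches to CANNTG, the E-box core that the tendon factor scleraxis and other factors of its kind can bind (the motif reads the same on both strands).
Fmod, chr1:134037004-134037303, plus strand: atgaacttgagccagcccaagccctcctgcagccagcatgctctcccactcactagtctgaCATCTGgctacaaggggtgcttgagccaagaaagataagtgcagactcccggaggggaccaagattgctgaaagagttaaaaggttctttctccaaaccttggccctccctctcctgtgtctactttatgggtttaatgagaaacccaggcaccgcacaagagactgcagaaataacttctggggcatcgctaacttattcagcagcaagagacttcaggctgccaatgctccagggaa
Kera, chr10:97606955-97607254, plus strand: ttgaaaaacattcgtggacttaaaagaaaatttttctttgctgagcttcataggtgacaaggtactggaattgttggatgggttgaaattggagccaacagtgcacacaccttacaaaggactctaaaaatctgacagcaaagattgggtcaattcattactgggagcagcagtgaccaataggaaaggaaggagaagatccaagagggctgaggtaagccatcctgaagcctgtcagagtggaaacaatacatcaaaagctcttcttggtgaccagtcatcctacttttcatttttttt
Chad, chr11:94564797-94565096, plus strand: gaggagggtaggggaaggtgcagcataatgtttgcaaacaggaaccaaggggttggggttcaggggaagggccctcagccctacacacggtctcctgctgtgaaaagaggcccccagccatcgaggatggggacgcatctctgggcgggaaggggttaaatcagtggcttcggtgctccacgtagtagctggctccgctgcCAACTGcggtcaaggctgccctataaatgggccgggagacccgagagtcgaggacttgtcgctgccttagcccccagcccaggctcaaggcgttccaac
*Fmod* and *Chad* had 1 match each and *Kera* had 0, where 72.3% of 32851 mouse promoters of the same length had at least 1. The *Kera* window lies wholly after the gene start of GENCODE M21 (97606879), which differs from the RefSeq start. Its 0 matches therefore do not cover the bases before that gene start. The *Chad* window also holds TATAAA, 28 bases before the start, as 13.6% of promoters do somewhere in the window on either strand. AGGTCA, a core sequence that retinoic acid receptors can bind, searched on either strand, was in none of these 3 windows, and of the 8 genes with a promoter in the table it was in *Omd* alone (16.3% of all promoters). These are matches of letters and no evidence of binding.

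*Dcn* was the broadest of the genes within connective tissue. Decorin is the main dermatan sulfate proteoglycan of muscle and tendon. It stood at 15501 CPM in ATRA+agonist and 14802.5 CPM in DMSO vehicle FAP-like cells, and at 17078 and 13382 CPM in tenocyte-like cells. Every FAP-like cell had a *Dcn* UMI, 1297 of 1297 and 1605 of 1605. Perineurial-like cells, with 5 cells in ATRA+agonist and 54 in DMSO vehicle, had 17461 and 13510 CPM. Among the 10 classes with at least 50 cells in each library the FAP-like mean was 111-fold above the next, glial-like cells, where the 10 richest cells held 100% and 92.3% of the UMIs.

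The 3 FAP-like subtypes differed in *Dcn* by less than a factor of 2 in both libraries. Subtypes were named by their markers: the Cxcl14 and Mme subtype had 19960 and 19278 CPM, the Gdf10 and Fst subtype 12928 and 12693 CPM, and the Pi16 and Sema3c subtype 10910 and 10515 CPM. The order of the 3 subtypes was the same in both libraries. A small cluster that could not be named, led by *Tenm2* and *Apod* (39 and 49 cells), had 27092 and 28647 CPM of *Dcn* and 2522 and 2393 CPM of *Lum*, above the 3 FAP-like subtypes and tenocyte-like cells for both genes. It was enriched in glial markers such as *Scn7a* and *Cdh19*.

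*Bgn*, which encodes the close relative of decorin, was nearly level between FAP-like cells (865 and 886 CPM) and tenocyte-like cells (916 and 1011 CPM). Within FAP-like cells it was highest in the Gdf10 and Fst subtype at 1200.2 and 1138 CPM. It was lowest in the Pi16 and Sema3c subtype at 621 and 744 CPM. *Bgn* was also counted outside connective tissue. MuSC-like cells (muscle stem cells) had 195 and 126 CPM. Glial-like cells had 147 and 146 CPM.

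*Lum* had a pattern opposite to that of *Fmod*. Lumican is a keratan sulfate proteoglycan that is bound by the same collagen region as fibromodulin. *Lum* stood at 1394 CPM in ATRA+agonist and 1053 CPM in DMSO vehicle FAP-like cells, against 109 and 121 CPM in tenocyte-like cells. FAP-like cells held 93.6% and 90.9% of the *Lum* UMIs of all analyzed cells. Within them the Cxcl14 and Mme subtype was highest at 1923 and 1608 CPM, the Gdf10 and Fst subtype had 1253 and 753 CPM, and the Pi16 and Sema3c subtype had 722 and 558 CPM. *Lum* and its chromosomal neighbor *Kera* thus peaked in different cells. On chromosome 10 (GRCm38) *Dcn* (97479609 to 97518143), *Lum* (97565128 to 97572703) and *Kera* (97606879 to 97613692) lie in a row on the plus strand, 47.0 and 34.2 kb apart.

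*Ogn* and *Prelp* had alike profiles over the classes. Osteoglycin is a small keratan sulfate proteoglycan, and prolargin joins collagen to the heparan sulfate of basement membranes. *Ogn* stood at 3149 and 2468 CPM in tenocyte-like cells and at 1175 and 971 CPM in FAP-like cells. *Prelp* stood at 1493 and 1494 CPM in tenocyte-like cells and at 224 and 216 CPM in FAP-like cells. Over the 20 profiles of 10 classes in 2 libraries, their log2(CPM + 10) had a Pearson correlation of 0.974. *Kera* with *Chad* (0.999), *Fmod* with *Kera* (0.978) and *Fmod* with *Chad* (0.976) had higher values. Between FAP-like subtypes the 2 genes parted. *Ogn* was highest in the Gdf10 and Fst subtype (1267 and 1126 CPM) and *Prelp* in the Cxcl14 and Mme subtype (273 and 258 CPM). The profiles share libraries and depth, and the correlations are a description.

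Both genes, and *Bgn*, were also found in MuSC-like cells. *Ogn* had 184 and 185 CPM there and *Prelp* had 167 and 155 CPM. *Ogn* was detected in 54.3% and 57.3% of MuSC-like cells and *Prelp* in 55.6% and 57.1%, at medians of 7448 and 6469 UMIs per cell. In T or NK cell-like cells, which should not express these genes, *Ogn* was detected in 0.324% and 1.09% and *Prelp* in 0 of 309 and 0 of 92 cells, at medians of 6097 and 5966.5 UMIs. After thinning each cell to 1000 UMIs, *Ogn* was detected in 16.8% and 16.4% of MuSC-like cells and *Prelp* in 13.2% and 14.8%. The stem cell gene *Pax7* was detected in 95.6% and 83.9% of the MuSC-like cells that had *Ogn*, while *Dcn* was detected in 19.1% and 29.8% of them. Of all MuSC-like cells, 359 of 414 and 419 of 532 had *Pax7*, and 18.1% and 26.5% had *Dcn*. The part of free RNA in these levels was not tested. Barcodes with mostly hemoglobin UMIs (hemoglobin-rich barcodes) had 47.7 and 153 CPM of *Ogn*, counted over UMIs without hemoglobin. They had 47.7 and 56.7 CPM of *Prelp* and 44.8 and 109 CPM of *Bgn*. For each 100 *Dcn* UMIs, MuSC-like cells had 224 and 131 *Ogn* UMIs and 203 and 110 *Prelp* UMIs, where the hemoglobin-rich barcodes had 4.88 and 8.01 *Ogn* and 4.88 and 2.96 *Prelp* UMIs.

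*Aspn* was the one gene with a high level in vessel-wall cells. Asporin resembles decorin but carries no sugar chain. *Aspn* stood at 1157 CPM in ATRA+agonist and 950 CPM in DMSO vehicle smooth muscle or pericyte-like cells, and at 1137 and 1516 CPM in tenocyte-like cells. It was detected in 82.6% and 82.5% of the smooth muscle or pericyte-like cells at medians of 3809 and 3756 UMIs, and in 0.647% and 0 of the T or NK cell-like cells. Thinned to 1000 UMIs, 62.6% and 55.4% still had it. Of the vessel-wall cells with *Aspn*, 98.3% and 99.6% also had the pericyte gene *Rgs5*, whereas 3.31% and 6.22% had *Dcn*. Of all cells of the class, 210 of 219 and 283 of 292 had *Rgs5*, and 3.20% and 6.16% had *Dcn*. The level was spread over the class, in which the richest 10 cells held 18.7% and 14.97% of the *Aspn* UMIs.

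In FAP-like cells *Aspn* levels were the furthest apart between subtypes among the members shown in the plot of subtypes. It had 646 and 518 CPM in the Pi16 and Sema3c subtype, 335 and 349 CPM in the Gdf10 and Fst subtype and 71.1 and 68.7 CPM in the Cxcl14 and Mme subtype. *Aspn* and *Lum* therefore ran in opposite order over the 3 subtypes in both libraries.

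**Figure D2:**
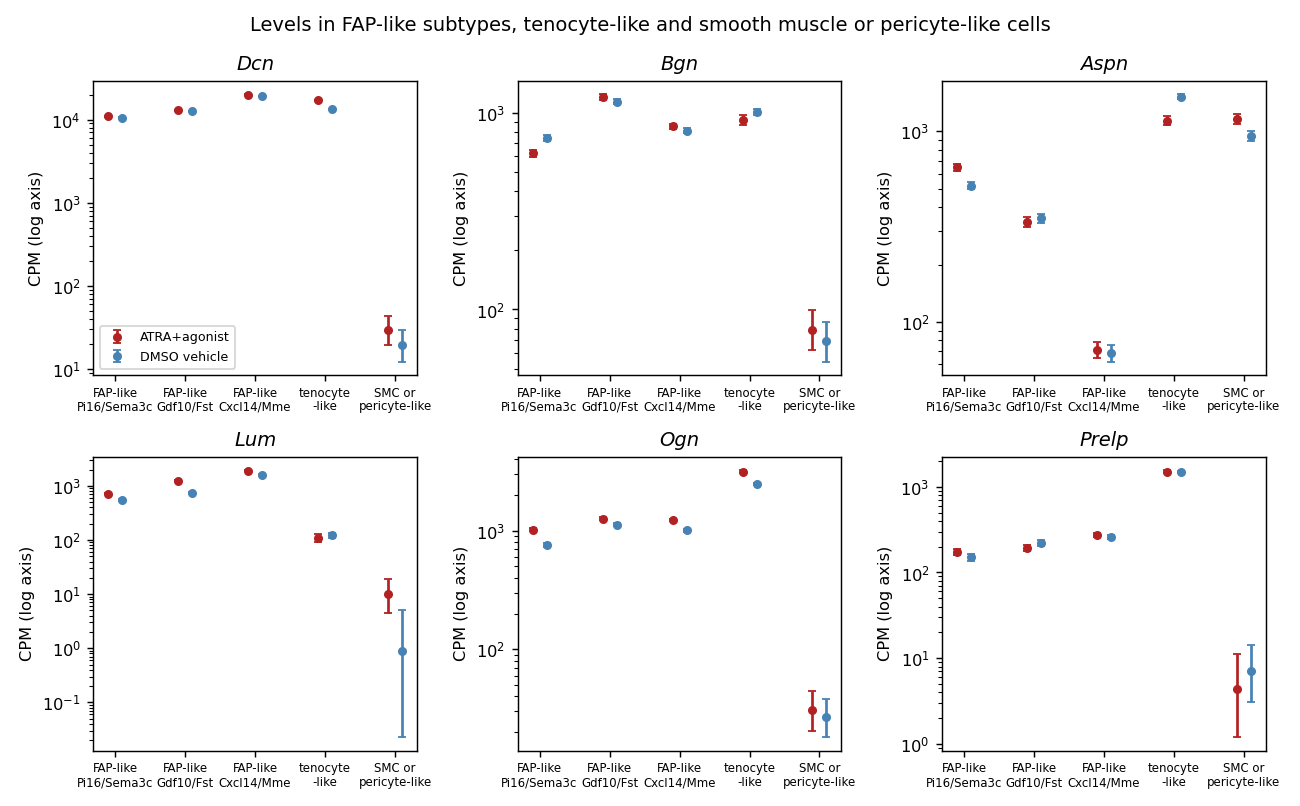
Level in CPM on a log axis of 6 genes in the 3 FAP-like subtypes, tenocyte-like and smooth muscle or pericyte-like (SMC or pericyte-like) cells, with points for the 2 libraries and bars for 95% Poisson intervals. *Aspn* falls from 646 and 518 to 71.1 and 68.7 CPM over the subtypes from left to right while *Lum* climbs from 722 and 558 to 1923 and 1608 CPM.

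Osteomodulin, the product of *Omd*, is a keratan sulfate proteoglycan first known from bone. *Omd* stood at 54.2 and 58.4 CPM in tenocyte-like cells and at 16.4 and 16.0 CPM in FAP-like cells. A class too small for the ranking above had more. Perineurial-like cells, which sheathe nerve bundles, were 54 cells in the DMSO vehicle library and 5 in the ATRA+agonist library. In the 54 DMSO vehicle cells *Omd* stood at 253 CPM (76 UMIs), 14.6% of the *Omd* UMIs of the analyzed cells of that library. It was detected in 36 of the 54 cells, and 35 of these 36 had the perineurial gene *Cldn1*, as did 48 of all 54. With 5 cells and 1 *Omd* UMI the ATRA+agonist library gives no usable level. *Aspn* (49544443 to 49567565), *Omd* (49582462 to 49592822) and *Ogn* (49608046 to 49624501) are neighbors on the plus strand of chromosome 13 (GRCm38), inside the span of *Cenpp* on the minus strand. In the DMSO vehicle perineurial-like cells *Ogn* stood at 1074 CPM, near its FAP-like level of 971 CPM.

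By the likeness of their profiles over the same 20 class-by-library values, among 11029 genes that are no member, *Kera* and *Chad* were nearest to *Ptx4* and *Cilp2* (Pearson r from 0.997 to 0.999), and *Fmod* was nearest to *Tnmd*, *Angptl7* and *Col22a1* (0.978 to 0.988). *Lum* was nearest to *Adgrd1*, *Clec3b* and *Smoc2* (0.991 to 0.993). *Dcn* was nearest to *Mmp2* (0.989), *Bgn* to *Mxra8*, *Ntn1* and *Sec31a* (0.979 to 0.990), and *Aspn* to *Bmp5*, *Nfatc4* and *Tbx18* (0.984 to 0.991). *Ogn* was nearest to *Srpx2*, *Ssc5d* and *Plekha6* (0.973 to 0.978), *Prelp* to *Gm17167*, *Plekha6* and *Ssc5d* (0.968 to 0.984) and *Omd* to *Adamts3*, *Twist1* and *Nox4* (0.943 to 0.968). Some of these are markers that named the cell classes (*Tnmd*, *Cilp2*, *Clec3b* and *Smoc2*).

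The comparison of the treatment with the vehicle asked whether stimulated retinoic acid signaling went with other proteoglycan levels. A gene was counted as higher or lower where its level was at least 1.5-fold apart and it had at least 100 UMIs over both libraries in the class. In FAP-like cells 0 of the 8 members with enough UMIs were higher and 0 were lower, where 2.13% of 11530 genes were higher and 4.39% were lower. In tenocyte-like cells 0 of 10 members were higher and 0 were lower, where 3.78% of 6037 genes were higher and 7.11% were lower. The median log2 ratio of the members was 0.06 in FAP-like and 0.04 in tenocyte-like cells, beside 0.02 and -0.02 for all genes with enough UMIs. The members with enough UMIs thus differed by less than 1.5-fold in both cell classes.

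Below this fold, some members were apart by more than counting error. In FAP-like cells *Lum* was furthest apart, at 1394 against 1053 CPM (log2 ratio 0.41, interval 0.37 to 0.44). *Ogn* followed at 1175 against 971 CPM (0.28, interval 0.24 to 0.31), and *Aspn* at 311 against 281 CPM (0.14, interval 0.08 to 0.21). *Dcn* was 0.07 apart (0.06 to 0.08). For *Bgn*, *Fmod*, *Prelp* and *Omd* the interval included 0.

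In tenocyte-like cells *Kera* was 578 against 393 CPM (log2 ratio 0.56, interval 0.42 to 0.69) and *Chad* 724 against 513 CPM (0.50, interval 0.38 to 0.62), just under the 1.5-fold line. *Dcn* (0.35, interval 0.33 to 0.38) and *Ogn* (0.35, interval 0.30 to 0.41) were also higher in the ATRA+agonist library beyond counting error. *Aspn* was the member furthest the other way, at 1137 against 1516 CPM (-0.41, interval -0.50 to -0.33). The 10 tenocyte-like cells richest in *Aspn* held 48.8% and 23.1% of its UMIs in the class. The ratios of *Fmod* (0.08) and *Bgn* (-0.14) were small, and those of *Prelp* (0.00), *Lum* (-0.15) and *Omd* (-0.11) had intervals that included 0.

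**Figure D3:**
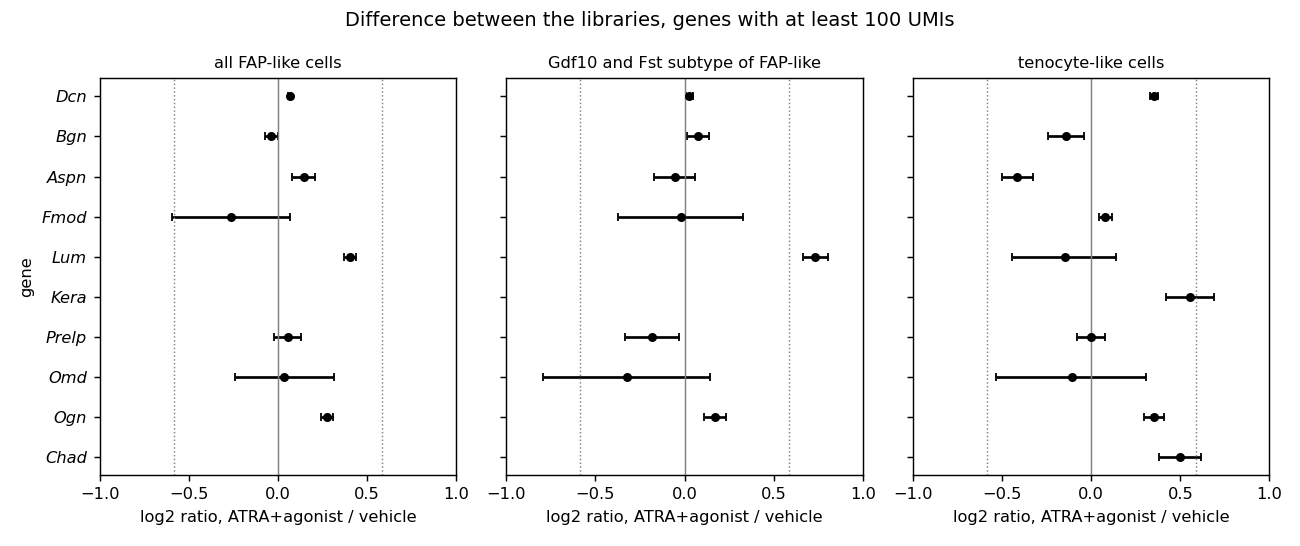
Log2 ratio of ATRA+agonist over DMSO vehicle for each gene with at least 100 UMIs in all FAP-like cells, in their Gdf10 and Fst subtype and in tenocyte-like cells, with 95% intervals for counting error (bars) and the 1.5-fold lines (dotted). *Lum* in the Gdf10 and Fst subtype at 0.73 is the one point past a dotted line, and *Kera* and *Chad* in tenocyte-like cells lie just inside it.

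The *Lum* difference was largest in the Gdf10 and Fst subtype, with 1253 against 753 CPM (log2 ratio 0.73, interval 0.67 to 0.80). It was the 1 of 8 members past 1.5-fold there, where 2.78% of 7864 genes were higher and 3.13% were lower. In the Pi16 and Sema3c subtype the ratio was 0.37 (0.29 to 0.45) and in the Cxcl14 and Mme subtype 0.26 (0.22 to 0.30). In the Pi16 and Sema3c subtype 0 of 7 members were past 1.5-fold (2.99% of genes were higher and 3.54% lower), and in the Cxcl14 and Mme subtype 0 of 7 (2.22% and 4.51%). *Ogn* was higher beyond counting error in all 3 subtypes, by 0.42, 0.29 and 0.17 in the Pi16 and Sema3c, Cxcl14 and Mme, and Gdf10 and Fst subtypes. *Bgn* went apart between them, at -0.26 (-0.34 to -0.18) in the Pi16 and Sema3c subtype and 0.08 in each of the others.

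FAP-like and tenocyte-like cells were divided further into 9 sub-clusters to see whether these differences were shared. Sub-clusters 3, 8 and 9 were tenocyte-like, and their leading genes (no members) were *P3h2*, *Angptl7* and *Thbs4* in 3, *Ctla2a*, *Col22a1* and *Spp1* in 8 and *Wif1*, *4933400C23Rik* and *Pappa2* in 9. The 10 leading genes of sub-cluster 9 also included the muscle fiber genes *Acta1*, *Tnnc2* and *Myl1*, whose part in its levels was not tested. Of the FAP-like sub-clusters, *Grm8*, *Mme* and *Gfra1* led 1, *Ndnf*, *Klf5* and *Igfbp3* led 2, *Cxcl13*, *Csmd1* and *C7* led 4, *Cmah*, *Opcml* and *Kcnq5* led 5, *Cxcl2*, *Ccl2* and *Ccl7* led 6, and *Dlk1*, *Trf* and *Thrsp* led 7.

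*Dcn* was higher in the ATRA+agonist library in 9 of 9 sub-clusters, in 8 of them beyond counting error, with log2 ratios from 0.00 to 0.52. *Ogn* was higher in 8 of 9 and beyond counting error in 7. *Lum* was higher in 7 of the 8 sub-clusters with at least 100 UMIs, beyond counting error in 6, and lower beyond it in sub-cluster 3 (-0.44). Its largest ratio was 0.80 in sub-cluster 2, with 1224 against 701 CPM.

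The tenocyte-like sub-clusters had unlike proteoglycan levels. Sub-cluster 8 (20 and 68 cells) had the most *Aspn*, at 2650 and 3420 CPM, against 967 and 1127 CPM in sub-cluster 3 (113 and 400 cells) and 593 and 486 CPM in sub-cluster 9 (35 and 41 cells). Sub-cluster 9 had the most *Ogn*, at 4599 and 3360 CPM. *Kera* stood at 607 and 481 CPM in sub-cluster 3 and at 567 and 377 CPM in sub-cluster 9. In sub-cluster 8 *Kera* had 54 UMIs in 5 cells of the ATRA+agonist library and 6 UMIs in 2 cells of the DMSO vehicle library. *Aspn* was lower in the ATRA+agonist library in sub-clusters 3 (-0.22) and 8 (-0.37), and its ratio in sub-cluster 9 was 0.29 with an interval that included 0. *Ogn* had ratios of 0.16 in sub-cluster 3 and 0.15 in 8, both below that of the whole class, and 0.45 in 9. The libraries had unlike shares of the 3 sub-clusters, and the part of this in the ratios of the whole class was not tested. *Chad* was 657 against 394 CPM in sub-cluster 3, a log2 ratio of 0.74 (0.58 to 0.89). Its ratio was 0.12 (-0.14 to 0.37) in sub-cluster 8 and 0.36 (0.03 to 0.69) in 9. The value in sub-cluster 3 is past 1.5-fold (1.67-fold). With at least 100 UMIs so were *Lum* in sub-clusters 2 (1.75-fold) and 5 (1.53-fold) and *Kera* in 9 (1.502-fold). The share of all genes past this fold is not given by sub-cluster.

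**Figure D4:**
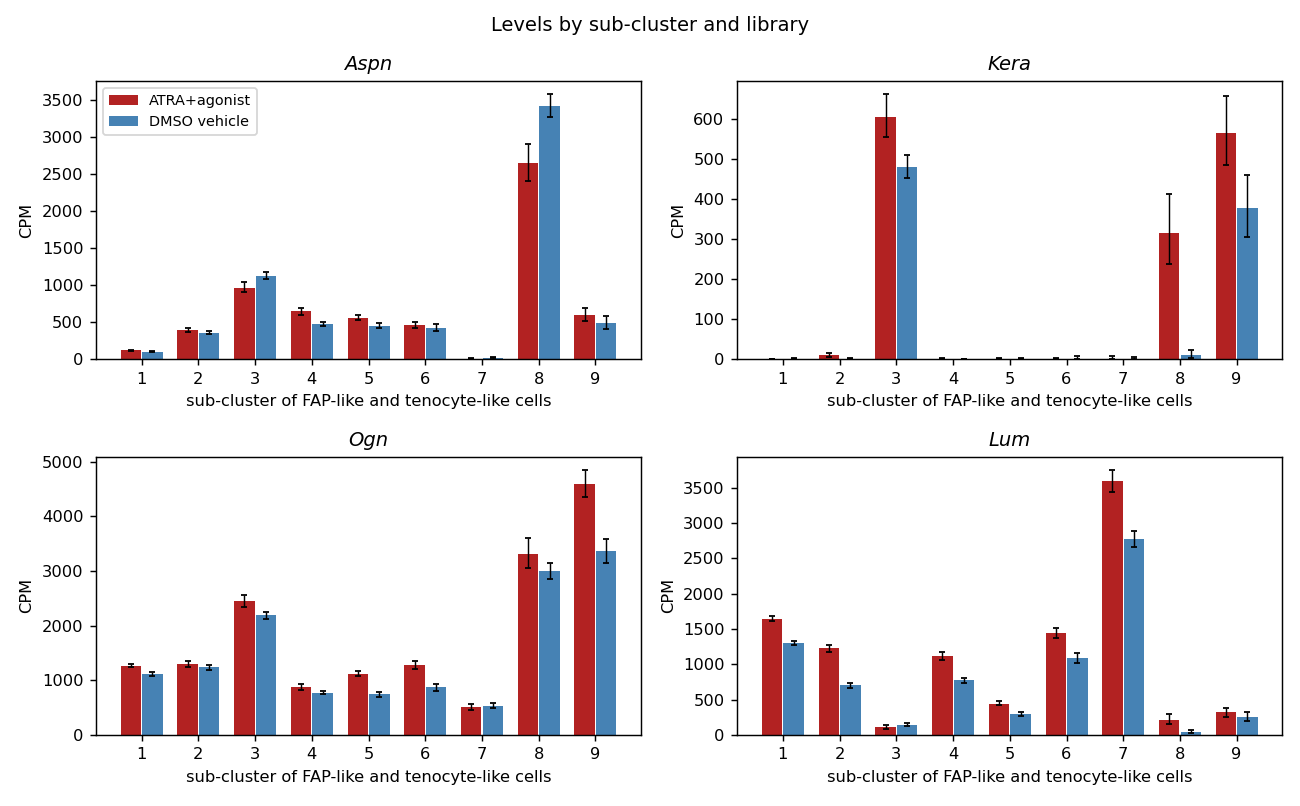
Level in CPM of *Aspn*, *Kera*, *Ogn* and *Lum* in 9 sub-clusters of FAP-like (1, 2, 4, 5, 6 and 7) and tenocyte-like (3, 8 and 9) cells, with bars for the 2 libraries and 95% Poisson intervals. *Aspn* peaks in sub-cluster 8 at 2650 and 3420 CPM and *Lum* in sub-cluster 7 at 3593 and 2774 CPM.

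Sub-cluster 7, led by *Dlk1*, was the FAP-like extreme. It had 27545 and 25036 CPM of *Dcn*, 3593 and 2774 CPM of *Lum* and 1.82 and 17.3 CPM of *Aspn*.

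In other classes 4 calls were made. In MuSC-like cells *Bgn* was higher, at 195 against 126 CPM (log2 ratio 0.64, interval 0.47 to 0.81), 1 of 4 members where 3.98% of 7257 genes were higher. Over the alternatives this ratio ran from 0.43 with no doublet removal, where it was below 1.5-fold, to 3.15 with the hemoglobin-rich barcode level subtracted. *Dcn* was lower there, at 82.3 against 141 CPM (-0.78, interval -0.99 to -0.57), 1 of 4 members where 3.13% were lower, and it reached -1.53 with no doublet removal. With the hemoglobin-rich barcode level subtracted, no *Dcn* level was left in MuSC-like cells and no ratio could be formed. *Ogn* and *Prelp* had ratios of -0.01 and 0.10 with intervals that included 0. The 10 richest MuSC-like cells held 51.5% and 40.5% of the *Dcn* UMIs and 24.6% and 18.6% of the *Bgn* UMIs. The *Dcn* level of hemoglobin-rich barcodes was also lower in ATRA+agonist, at 978 against 1915 CPM (UMIs without hemoglobin). So was that of monocyte or macrophage-like (5.36 against 16.7 CPM), T or NK cell-like (5.26 against 16.0 CPM) and neutrophil-like cells (3.56 against 10.5 CPM). It was higher in B cell-like (18.6 against 7.53 CPM, the latter 3 UMIs), smooth muscle or pericyte-like (29.7 against 19.7 CPM) and glial-like cells (152 against 121 CPM). The part of free RNA in the *Dcn* difference was not tested.

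In endothelial-like cells *Dcn* (17.7 against 36.6 CPM, log2 ratio -1.05) and *Bgn* (15.9 against 37.8 CPM, -1.25) were both lower, 2 of 2 members where 3.87% of 9637 genes were lower and 4.51% were higher. The class was made up of different clusters in the 2 libraries. The cluster led by *Aqp1* and *Kdr* had 1578 of the 1939 ATRA+agonist cells, and the cluster led by *Cd274* and *Gbp4* had 970 of the 2144 DMSO vehicle cells. A small cluster led by *Selp*, a selectin of venules, and *Lrg1* had 73 DMSO vehicle and 19 ATRA+agonist cells, and it held 237 of the 309 *Bgn* UMIs and 126 of the 299 *Dcn* UMIs of the DMSO vehicle class. Its median depth was 7124 UMIs per cell in DMSO vehicle and 1093 in ATRA+agonist, and 1 DMSO vehicle endothelial-like cell alone held 77 *Dcn* UMIs. *Bgn* stood at 263 (8 UMIs) and 459 CPM in this cluster and at 4.63 and 3.49 CPM in the cluster led by *Aqp1* and *Kdr*. Without the *Selp* cluster, left out after its values were seen, the class had 14.8 against 9.40 CPM of *Bgn* (log2 ratio 0.65) and 17.7 against 22.6 CPM of *Dcn* (-0.35), so that the *Bgn* ratio turned and the *Dcn* ratio no longer reached 1.5-fold. The *Dcn* ratio was also short of 1.5-fold with no doublet removal (-0.52), with a doublet rate of 15% (-0.46) and when thinned to 1000 UMIs (-0.52). With the hemoglobin-rich barcode level subtracted, neither gene had a level left in endothelial-like cells.

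*Aspn* in smooth muscle or pericyte-like cells was 1157 against 950 CPM (log2 ratio 0.28, interval 0.16 to 0.41), so that 0 of 2 members were past 1.5-fold there, where 3.51% of 3878 genes were higher and 5.54% were lower. In glial-like cells 0 of 2 were past it (4.16% of 4948 genes were higher and 6.77% lower). Among unnamed clusters, 1 of shallow cells led by *Cfd* and *Timp1* had more *Bgn* (1946 against 987 CPM) and *Lum* (1637 against 954 CPM), 2 of 4 members where 16.8% of 357 genes were higher and 6.16% were lower.

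Collagens, to which these proteoglycans bind, included genes past 1.5-fold in both classes. Of 13 listed fibrillar, fibril-associated and type VI collagens with enough UMIs in tenocyte-like cells, 6 were higher, 0 were lower and the median log2 ratio was 0.53, where 3.78% of all genes were higher and 7.11% lower. *Col3a1*, the type III collagen chain, stood at 746 against 220 CPM (1.76, interval 1.62 to 1.91), and *Col1a1*, of type I collagen, at 2984 against 1151 CPM (1.37, interval 1.31 to 1.44). In FAP-like cells 3 of 11 were higher and 0 were lower with a median of 0.45, where 2.13% of all genes were higher and 4.39% lower. *Col3a1* stood at 2246 against 1367 CPM (0.72) and *Col5a3*, of the fibril-starting type V collagen, at 336 against 209 CPM (0.68) there.

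Listed genes that fold, cross-link or process collagen, and those that make, trim or bind the proteoglycans, mostly stayed within 1.5-fold. The same shares of all genes (2.13% higher and 4.39% lower in FAP-like cells, 3.78% and 7.11% in tenocyte-like cells) stand beside each count. Of the collagen folding and cross-linking genes, 0 of 17 were higher and 2 lower in FAP-like cells, the prolyl hydroxylase subunits *P4ha1* (221 against 343 CPM) and *P4ha3* (4.84 against 7.40 CPM). In tenocyte-like cells 2 of 15 were higher, *Loxl2*, a collagen cross-linker (128 against 74.6 CPM), and *Serpinh1*, the collagen chaperone (659 against 429 CPM). Of the chondroitin and dermatan sulfate genes 1 of 19 was higher in FAP-like cells, *Chst7* (15.8 against 9.87 CPM), and 2 of 13 in tenocyte-like cells, *Chst12* (59.8 against 31.7 CPM) and *B3gat3* (37.5 against 20.9 CPM). Of the keratan sulfate genes 2 of 6 were higher in FAP-like cells, the sulfotransferases *Chst1* (7.87 against 5.16 CPM) and *Chst2* (7.03 against 4.48 CPM), and 0 of 3 in tenocyte-like cells.

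Of the proteases and their helpers 2 of 8 were higher and 1 was lower in tenocyte-like cells. *Pcolce*, an enhancer of procollagen cleavage, had 548 against 319 CPM, *Pcolce2* had 220 against 132 CPM, and the stromelysin gene *Mmp3* had 65.3 against 112 CPM. In FAP-like cells 0 of 11 were past the fold. Of the receptors and growth factors 0 of 14 were past it in FAP-like cells and 1 of 13 in tenocyte-like cells, *Itga2*, of a collagen receptor (90.8 against 53.0 CPM). The other members of the leucine-rich repeat family had 0 of 5 and 0 of 3 genes past it. Among them *Ecm2* had 390 and 350 CPM in tenocyte-like and 128 and 128 CPM in FAP-like cells, and *Podn* had 157 and 139 CPM in FAP-like cells.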

How the data were processed

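The deposited matrices hold raw UMI counts, made by the authors with Cell Ranger 7.2.0, as the file headers say, from 10x Genomics 3-prime libraries and the mouse build mm10 (GRCm38). The annotation release and counting by strand are not given in the sources used here. Gene positions are from GENCODE M21. Libraries held 65197625 UMIs over 10444 barcodes (ATRA+agonist) and 109343486 over 17394 (DMSO vehicle).

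Cells were kept with 300 to 5000 genes, under 20% mitochondrial and under 0.25% hemoglobin beta UMIs, and the 7.5% with the highest doublet score (a rebuilt form of DoubletFinder) were removed. Louvain clustering (resolution 0.8, igraph 0.11.9, Python 3.11.15) used 2000 variable genes and 30 components without the members and listed matrix genes. Clusters were named by at least 3 enriched markers, under thresholds set after the clusters were seen; 33 clusters gave 28 named, and 1498 of 13860 cells stayed unnamed. A difference from the study may come from these rebuilt names. UMIs were summed per class. Ratio intervals are exact and conditional on the summed count. The calculation was tested on simulated counts. Genes were named by a rule: the members, the 2 genes of each list furthest apart each way, the 3 nearest profiles and the 3 leading genes of each sub-cluster. Other genes were chosen after their values were seen. Some items are not reported here. The members and lists were chosen with earlier results of these data known.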

Additional observations from a re-analysis of the deposited data

Results flagged for a closer look

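Of the 10 genes, *Dcn*, *Bgn* and *Aspn* had log2 ratios of ATRA+agonist over DMSO vehicle that pointed opposite ways in different cell classes, each with an interval that excluded 0. With 1 library per group the differences between classes were not tested. *Dcn* had ratios of 0.067 in FAP-like and 0.35 in tenocyte-like cells and of -0.78 in MuSC-like and -1.05 in endothelial-like cells. The *Dcn* level of hemoglobin-rich barcodes was also lower in the ATRA+agonist library (978 against 1915 CPM). In the immune cell classes the *Dcn* level went both ways, and the part of free RNA was not tested. *Bgn* had a ratio of 0.64 in MuSC-like cells, -0.14 in tenocyte-like cells and -1.25 in endothelial-like cells, where it turned to 0.65 without the cluster led by *Selp* and *Lrg1*. *Aspn* had ratios of 0.14 in FAP-like cells, 0.28 in smooth muscle or pericyte-like cells and -0.41 in tenocyte-like cells. In tenocyte-like sub-clusters 3, 8 and 9 *Aspn* had ratios of -0.22, -0.37 and 0.29, the last with an interval that included 0. The *Aspn* ratio in all tenocyte-like cells ranged from -0.54 to -0.36 over the alternatives, and that in vessel-wall cells from 0.17 to 0.32. Other ratios were less steady, with ranges of 0.43 to 3.15 for *Bgn* and -1.53 to -0.63 for *Dcn* in MuSC-like cells, and of -1.42 to -0.35 for *Dcn* and -2.01 to 1.51 for *Bgn* in endothelial-like cells. These ranges leave out 1 alternative for *Dcn* in both classes and for *Bgn* in endothelial-like cells. With the hemoglobin-rich barcode level subtracted, no level was left there and no ratio could be formed.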

How the results depend on the processing

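Of 424 log2 ratios (28 ratios under up to 17 alternatives, 4 of them chosen after seeing the data), 45 had another sign than the reported value, in 15 of the ratios. Of these, 39 were of ratios whose reported interval included 0, and the other 6 are given here. The 9 members with their highest level in tenocyte-like cells became 8, as *Dcn* was then highest in FAP-like cells, with a doublet rate of 15%, Louvain resolution 0.4, members kept for clustering, cells classed by markers and equal weight per cell, and 6 when thinned to 1000 UMIs. The 0 members higher in FAP-like cells became 1 with under 10% mitochondrial UMIs (*Fmod*) and with at least 20 UMIs (*Kera*). The 0 lower became 1 (*Fmod*, which had few cells) with no doublet removal, with members and matrix genes kept for clustering, with each cell classed by its own marker UMIs and with each cell given equal weight. In tenocyte-like cells the 0 higher became 1 with no hemoglobin filter and with each cell given equal weight (*Kera*), 1 with no doublet removal, with cells classed by markers and with the hemoglobin-rich barcode level subtracted (*Lum*), and 2 when thinned to 1000 UMIs (*Kera* and *Chad*). The 0 lower there did not change. *Bgn* in endothelial-like cells reversed to 0.20 with no doublet removal, 1.51 with no hemoglobin filter and 0.65 without the cluster led by *Selp* and *Lrg1*, and in tenocyte-like cells to 0.023 with equal weight per cell. *Fmod* in tenocyte-like cells reversed to -0.012 with no doublet removal and to -0.0009447 with cells classed by markers. The cause was not tested. *Lum* in FAP-like cells stayed between 0.37 and 0.50, *Kera* and *Chad* in tenocyte-like cells between 0.43 and 0.78 and between 0.42 and 0.59. *Lum* in tenocyte-like cells ran from -0.71 to 1.42, *Fmod* in FAP-like cells from -1.09 to 0.97 and *Ogn* in MuSC-like cells from -0.12 to 2.11. *Fmod* in FAP-like cells had no ratio with the hemoglobin-rich barcode level subtracted. FAP-like subtypes, sub-clusters and gene lists were not run under the alternatives. No paired analysis was possible because each group has 1 library, and no library could be left out.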
